A study of Bos taurus with 21 samples.

Results

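The miRNA cargo of serum extracellular vesicles (EVs) was described in 7 healthy cows, the control group of a study of 21 cows. The healthy libraries were taken by their labels alone, so no measured value entered the choice. The other groups, 7 cows with subclinical and 7 with clinical mastitis, were not compared here. Each library came from the serum EVs of a different labelled cow, 3 µg of total RNA entered each, and the healthy cows carry no treatment, allele or time point in the labels. Breed, age, number of calvings and stage of lactation are not given in the sources used here, and a miRNA table holds no vesicle protein against which the EV label could be checked. The cows are called healthy 1 to healthy 7. The cargo was read from 847 miRNA rows, of which 298 carry the name of a known bovine miRNA and 549 carry a number behind the name of a chromosome or scaffold. The known and the numbered rows were scaled apart by the authors and are described apart.

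EVs are membrane-bound particles that cells shed into body fluids, and those in blood come from platelets, red cells, leukocytes, the vessel wall and many organs. miRNAs are short RNAs that sit in Argonaute proteins and repress messenger RNAs that pair with their seed, the stretch near the 5′ end. Each is cut from a hairpin whose arms, 5p and 3p, can both give a miRNA, although one arm usually dominates. Members of a family such as let-7 share a seed, and several hairpins often lie together on a chromosome and are transcribed as a cluster. In bulk EV samples, fewer vesicles of a source and less miRNA per vesicle cannot be told apart.

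The known miRNAs took few of the reads. Recovered known reads numbered 3058, 2162, 1853, 2190, 4763, 1371 and 5706 in healthy 1 to healthy 7, and numbered reads ran from 13033 to 34215. Known miRNAs made up 4.34 to 14.1% of the recovered reads, known and numbered together, of healthy 1 to healthy 6 and 30.5% of those of healthy 7. Recovered reads exceed the scaling totals by 2.81 to 5.39% in the known and 10.6 to 15.0% in the numbered rows. A read may therefore count in more than 1 row. Healthy 7 stood apart in this way, with the most known and the fewest numbered reads, and values without it are given beside several of the results. In healthy 6, the shallowest library, 1 known read was worth 750.8 units of signal, reads per 1000000 of the scaling total, and in healthy 7 it was worth 180.2 units. At 3 reads, the limit that a count of 0 allows ran from a share of 0.0526% of known reads in healthy 7 to 0.219% in healthy 6.

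A small set of miRNAs carried most of the known signal. The 10 most abundant rows of each cow held 76.7% ± 6.40 of it (SD, n = 7), from 66.5% in healthy 5 to 85.6% in healthy 1. The 5 most abundant held 63.1% ± 6.34. Between 3 and 5 rows were enough to reach 50% of a cow's known signal, and between 14 and 31 rows to reach 90%. There were 5 names in the top 10 of all 7 cows, namely let-7a-5p, let-7f, let-7b, miR-126-5p and miR-23a, and 17 in the top 10 of at least 1 cow.

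miR-126-5p, one arm of a miRNA that is abundant in endothelial cells and platelets, had the highest mean. Its signal ran from 126306 in healthy 7 through a median of 189940 to 286511 in healthy 3, with a mean of 195838 ± 53267 (SD, n = 7). That is 18.8% ± 5.13 of the known signal. In healthy 3 it took 514 of 1853 known reads, a share of 27.7% (Wilson 95% interval 25.8 to 29.8%), and in healthy 7 it took 701 of 5706, a share of 12.3% (11.5 to 13.2%). These intervals do not meet, so counting error alone does not span the distance between those cows.

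let-7a-5p, a member of the let-7 family that is known for holding cells in a differentiated state, came next and varied far less. Its signal lay between 163296 and 192308 with a median of 183778 and a mean of 181765 ± 10033 (SD, n = 7), a share of 17.5% ± 0.910. It led in 5 of the 7 cows, and miR-126-5p led in the other two, healthy 1 and healthy 3. The order of their means therefore does not hold cow by cow: the mean difference was 1.35 percentage points with an SD of 5.04 points.

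let-7f and let-7b followed. let-7f had a signal of 104187 to 135886 with a median of 121752 and a mean of 119692 ± 13431, and let-7a-5p was above it in 7 of 7 cows. let-7b ran from 64660 in healthy 3 to 127556 in healthy 2 with a median of 88468 and a mean of 91440 ± 21401. let-7f was above let-7b in 6 of 7 cows, and let-7b was above miR-23a in 7 of 7. miR-23a, from a cluster with miR-27a and miR-24, had a mean signal of 56214 ± 11750 and ranked between 5 and 7 in every cow.

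**Figure D1:**
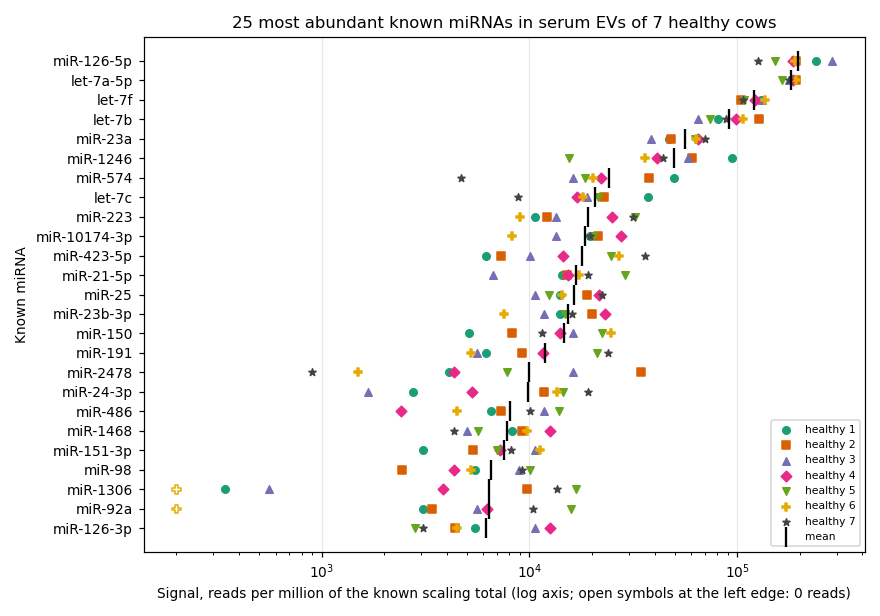
Signal of the 25 known miRNAs with the highest means in serum EVs of 7 healthy cows, on a log axis in reads per 1000000 of the known scaling total, with 1 symbol per cow and a black bar for the mean. let-7a-5p and let-7f are tightly grouped, while miR-2478, miR-24-3p and miR-1306 are spread widely, and the open symbols at the left edge mark libraries with 0 reads.

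Below these the levels ran close together. miR-1246 had a mean signal of 49802 ± 24589, ranked 4 in its best cow and 16 in its worst, and ran from 15438 in healthy 5 to 94114 in healthy 1. miR-574 averaged 24121 ± 14836 and let-7c 20591 ± 8629, and each was highest in healthy 1 and lowest in healthy 7. miR-223, which marks neutrophils, monocytes and platelets, averaged 19103 ± 10091. It was highest in healthy 5 at 32181 and lowest in healthy 6 at 9009. Between ranks 5 and 25, miR-1246 was above miR-574 in 6 of 7 cows, and each of the other neighbours in the order of means held that order in 2 to 5 of 7 cows. The order there is one of means and not of cows.

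The rest of the 25 most abundant miRNAs had mean signals from 18525 down to 6194. miR-10174-3p averaged 18525 ± 6114, miR-423-5p 17938 ± 11407 and miR-21-5p, a miRNA that many cells raise in inflammation, 16691 ± 6650. miR-25, processed from an intron of the replication gene MCM7, averaged 16324 ± 4647, and miR-23b-3p averaged 15304 ± 5141. miR-150, abundant in mature lymphocytes, averaged 14605 ± 7144 and was lowest in healthy 1 at 5133 and highest in healthy 6 at 24775.

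Then came miR-191 at 11809 ± 7637, miR-2478 at 9914 ± 12028, miR-24-3p at 9796 ± 6618 and the red cell miRNA miR-486 at 8061 ± 4068. Next were miR-1468 at 7819 ± 2965, miR-151-3p at 7510 ± 2845 and miR-98, a let-7 relative, at 6515 ± 2863. miR-1306 averaged 6392 ± 6916, miR-92a 6377 ± 5288 and miR-126-3p 6194 ± 3809. Of these 25, only miR-1306 and miR-92a were without a read in a cow, and in both that cow was healthy 6.

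The let-7 family was the largest group of related miRNAs among the lists. All 10 of its rows were read in at least 1 cow and 8 in all 7 cows, for 8627 reads. The family held 42.6, 44.1, 40.6, 41.8, 38.2, 46.4 and 39.4% of the known signal in healthy 1 to healthy 7, a mean of 41.9% ± 2.80 (SD, n = 7). Its median row had a mean signal of 5988, against 73.38 for the median of all 298 known rows. Behind let-7a-5p, let-7f and let-7b stood let-7c with 396 reads, miR-98 with 150, let-7g with 108, let-7d with 94, let-7e with 72, let-7i with 32 and let-7a-3p with 5. Members that differ by few bases are given as the authors assigned their reads.

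**Figure D2:**
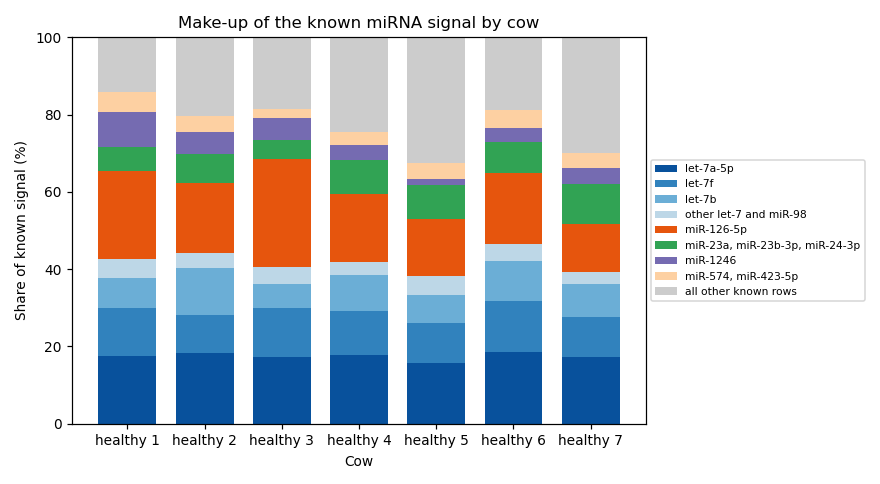
Make-up of the known miRNA signal in each of 7 healthy cows, as stacked shares that sum to 100%. The blue let-7 segments fill 38.2 to 46.4% of every bar, miR-126-5p is largest in healthy 3 at 27.7%, and the grey remainder is largest in healthy 5.

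Lists of miRNAs named for cell types overlapped, hold more than cell type markers, and were read as levels, not as sources. The platelet list held 25.1% ± 3.18 of the known signal with 9 of its 12 rows read and 6 read in all 7 cows. The endothelial list held 21.9% ± 4.56 with 7 of 9 rows read and 4 read in all 7 cows. Both contain miR-126, and without it they held 5.66% ± 2.72 and 2.48% ± 0.847. Their median rows had mean signals of 3553 and 509.3. In the platelet list miR-126-5p was followed by miR-223 and miR-21-5p, and in the endothelial list by miR-23b-3p and miR-24-3p. The endothelial pair miR-221 and miR-222 had only 16 and 4 reads over the 7 cows.

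The leukocyte list held 9.93% ± 2.76 of the known signal, from 6.64% in healthy 1 to 13.3% in healthy 5. Of its 12 rows, 8 were read and 4 were read in all 7 cows, with a median mean signal of 1875. miR-23a, miR-223 and miR-150 led it. miR-23a alone had 1200 of the list's 2252 reads and a mean share of 5.41%, so the level of the list is in large part that of miR-23a. The list is therefore no measure of leukocyte markers alone. miR-142, which blood cells make and most other cells do not, had 104 reads of its 3p arm and 71 of its 5p arm. miR-342, which lies in the gene EVL, had 113 reads, of which 40 were in healthy 5 and 59 in healthy 7. The inflammation-linked miR-146a and miR-146b were listed at 0 in all 7 cows, which allows each a share of up to 0.0142% of the pooled known reads.

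Red cell miRNAs were present at a low level. Of the 5 names on the list, 3 had a row. All 3 rows were read, and together they held 0.838% ± 0.424 of the known signal, from 0.365% in healthy 4 to 1.47% in healthy 5. Nearly all of it was miR-486, with 19, 15, 21, 5, 64, 6 and 56 reads. miR-451, the most abundant miRNA of red cells in mammals studied, had 3 reads in healthy 3, 6 in healthy 5 and none in the other cows, and miR-144, its neighbour on the chromosome, had 3 reads in healthy 4 alone. The list's median row had a mean signal of 425.3.

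miRNAs of solid organs were near the limit of detection in most cows. The liver list held 0.280% ± 0.362 of the known signal, with 2, 1, 3, 2, 24, 1 and 58 reads in healthy 1 to healthy 7, and 0.157% without healthy 7. miR-122, by far the most abundant miRNA of hepatocytes, had 1 read in healthy 4, 13 in healthy 5, 24 in healthy 7 and none in the other cows. miR-192 had 29 of its 35 reads in healthy 7, and miR-194 had 12 reads over the cows. Healthy 5 and healthy 7 were also the deepest libraries, with 4763 and 5706 known reads, and the relation of this share with depth is given with the other depth relations.

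The gut and kidney list held 0.344% ± 0.365, and 0.237% without healthy 7, with all 4 of its rows read and none in all 7 cows. It shares miR-192 and miR-194 with the liver list. miR-215 led it with 35 reads, of which 8 were in healthy 3 and 27 in healthy 7, and miR-10a had 11 of its 12 reads in healthy 1. The list of udder and other epithelium held 0.281% ± 0.225, with 7 of 10 rows read and none in all 7 cows. miR-184 led it with 11 reads in healthy 2, 6 in healthy 4 and 4 in healthy 6, followed by miR-200c with 10 reads and miR-141 with 7. miR-148a and miR-205, which are abundant in mammary tissue and milk of several mammals, were listed at 0 in all 7 cows.

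Muscle and neural miRNAs were rarer still. Only 5 of the 9 names on the striated muscle list and 5 of the 10 on the neural list had a row, and names without a row carry no value here. The smooth muscle and stroma list held 0.0958% ± 0.0920 with 4 of 10 rows read, led by miR-145 with 19 reads, miR-125b with 4 and miR-143 with 4. Striated muscle held 0.0518% ± 0.0697 in 12 reads, with miR-1, miR-206 and miR-133a the leading names, and 0.0332% without healthy 1. The neural list held 0.0416% ± 0.103 in 7 reads, of which 6 were miR-124a and miR-124b in healthy 4 and 1 was miR-128 in healthy 7, and it held 0.00292% without healthy 4. miR-124a and miR-124b had 3 reads each, and whether the same reads count in both rows was not tested.

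Other families differed widely in level. The miR-17-92 cluster with its paralogues held 2.74% ± 0.793 with 9 of 12 rows read, led by miR-25, miR-92a and miR-19b. miR-423, miR-320 and miR-574 together held 4.16% ± 0.909, from which miR-320a contributed 1 read. The miR-29 family held 0.294% ± 0.169 in 75 reads, with miR-29b, miR-29a and miR-29d-3p leading. The families of miR-15, miR-16, miR-103 and miR-107 held 0.233% ± 0.113 in 46 reads, led by miR-103 with 22, miR-107 with 9 and miR-16b with 8. The miR-30 family, which many tissues express, had 10 reads, of which 7 were miR-30c in healthy 5 and 2 were miR-30e-5p in healthy 6. Its share was 0.0443% ± 0.0700, with 0.0272% without healthy 5 and 0.0274% without healthy 6.

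A list of selected high-numbered miRNA names, for which no role is given here, held 6.41% ± 2.79 of the known signal. It does not hold every such name, since miR-10174-3p with 394 reads and miR-11976 with 86 lie outside it. Only 7 of its 17 rows were read, and miR-1246, with 950 of 1275 reads, made up most of the signal. miR-2478 had 12, 71, 29, 9, 36, 2 and 5 reads in healthy 1 to healthy 7, a share of 0.949% ± 1.14 that was 0.560% without healthy 2. miR-11987, next in the list, had 42 reads.

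Whether one arm of a hairpin outweighs the other was tested within each cow, where depth is shared. Both arms were rows of the table for 18 hairpins, and 10 of these had at least 20 reads over both arms and the 7 cows. The log2 ratio of the arms, on the log2(signal + 1) scale, was tested by an exact two-sided sign-flip permutation test over the 7 cows with Benjamini-Hochberg adjustment over the 10 hairpins. Of these, 6 passed, each with p = 0.01562 in that exact test, the smallest that 7 cows allow, and an adjusted p = 0.02604.

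Among the passing hairpins, miR-126, let-7a and miR-423 carried mostly the 5p arm. miR-126 had 700, 392, 514, 385, 701, 253 and 701 reads of 5p against 16, 9, 19, 26, 13, 6 and 17 of 3p, so that the ratio ran from 14.8 in healthy 4 to 53.9 in healthy 5, and 5p made up 97.2% of the pooled reads (Wilson 95% interval from 96.6%). miR-126-3p is the arm usually described as the abundant one in endothelial cells of human and mouse. let-7a had 3629 reads of 5p against 5 of 3p, and miR-423 had 430 against 36, with 29 of the 36 in healthy 5. The 5p arm was higher in 7 of 7 cows for each.

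The other passing hairpins carried mostly the 3p arm. miR-10174 had 5 reads of 5p, all in healthy 7, against 394 of 3p. miR-23b had 2 against 318 and miR-151, from the gene PTK2, had 13 against 146. For each of these the 3p arm was higher in 7 of 7 cows. The shares of miR-10174-3p and miR-23b-3p ran closely in parallel over the cows. Whether their rows share reads was not tested, so they may not be separate observations. The fitted log2 ratios of hairpins with an arm at 0 depend on the added 1 and are no bound, so the reads are given in their place.

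The remaining hairpins did not pass the exact permutation test. For miR-142 the 3p arm was higher in 6 of 7 cows and the 5p arm in healthy 5, with 71 reads of 5p against 104 of 3p and an adjusted p = 0.08929. miR-17 had 30 reads of 5p and none of 3p but was read in 4 cows only, and miR-425 had 22 and none, also in 4 cows, each with an adjusted p = 0.1389 by the same exact test. miR-6119 had 5 against 15 reads with an adjusted p = 0.25 (exact test). With any 1 cow left out, the remaining 6 allow no p below 0.03125 in the exact test. Without healthy 1 or healthy 6, 10 hairpins still met the read minimum, and after adjustment over them 0 passed. Without any other single cow, 8 or 9 met it and 6 or 7 passed. The 6 hairpins that passed with all cows had the same leading arm in 7 of 7 cows. The losses thus follow the number of hairpins adjusted over and do not show that the arm preference rests on healthy 1 or healthy 6.

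The RefSeq annotation of the ARS-UCD2.0 assembly, which is not the build the authors used and served only for names and neighbours, matched 294 of the 298 known rows. Of the 25 most abundant, 24 were matched, 16 have a gene copy inside a protein-coding gene and 11 have another miRNA gene within 10 kb of a copy. Some rows, such as let-7a-5p and let-7f, have several gene copies that need not all lie in a host. Hosts include EGFL7, an endothelial gene, for miR-126, NSRP1 for miR-423, the red cell membrane gene ANK1 for miR-486, and DGCR8, itself part of the machinery that cuts miRNA hairpins, for miR-1306. HUWE1 holds miR-98 and a copy of let-7f.

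Neighbours in a cluster were read at very unequal levels. miR-23a had 1200 reads, while miR-24-3p had 237 and miR-27a-3p 1, and in the paralogous cluster miR-23b-3p had 318 and miR-27b 0. The arrangement around MCM7 gave 344 reads of miR-25, 16 of miR-93 and 0 of miR-106b. let-7c had 396 reads against 1 of its neighbour miR-99a-5p, and let-7e had 72 against 18 of miR-125a and 1 of miR-99b. miR-191 had 307 against 22 of miR-425-5p. In the miR-17-92 cluster, miR-92a had 170 reads, miR-19b 35, miR-17-5p 30, miR-19a 19 and miR-20a 3. A row such as miR-24-3p or miR-92a sums the products of more than 1 gene, so a cluster's own share of it was not separable. Reads of different miRNAs also carry the preferences of the library chemistry, whose part in these ratios was not tested.

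Detection was shallow for known miRNAs. Of the 298 rows, 170 (57.0%) were read in at least 1 healthy cow, 128 were listed at 0 in all 7, and 30 were read in all 7. Those 30 rows held 90.2% of the known reads. At the other end, 53 rows were read in 1 cow only and held 141 reads, 0.668% of the total, with a median of 2 reads a row. A known row listed at 0 in all 7 cows may still make up to 0.0142% of the pooled known reads.

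Per cow, 66, 64, 64, 79, 93, 59 and 121 known miRNAs were detected in healthy 1 to healthy 7, a mean of 78.0 ± 22.3 (SD, n = 7) that was 70.8 without healthy 7. At the 1371 reads of the shallowest library, the expected numbers were 54.4, 57.8, 59.5, 72.5, 79.9, 59 and 89.2, a mean of 67.5 ± 13.2. Healthy 7 and healthy 5 thus had the most names both at their own depth and at equal depth. Healthy 1, the library with the next most reads, had the fewest at equal depth.

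**Figure D3:**
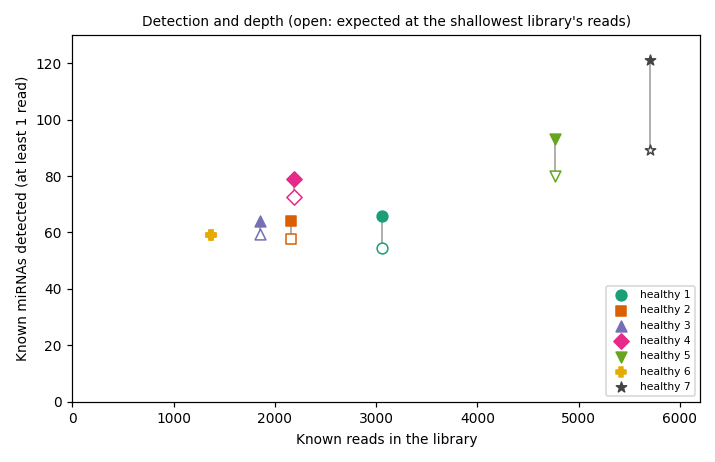
Known miRNAs detected in each of 7 healthy cows against the known reads of its library, with filled symbols for the library as read and open symbols for the number expected at 1371 reads. Healthy 7 has 121 names as read and 89.2 at equal depth, and healthy 6, which set the depth, has 59.

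Known reads were related to the number of detected miRNAs, and of the 4 shares looked at only the liver share passed, by Pearson's r and not by rank. Over the 7 cows, known reads and detected miRNAs had a Pearson r of 0.92 (exact permutation p = 0.005159, adjusted over 5 relations p = 0.02579) and a Spearman rho of 0.95 (exact permutation p = 0.003175, adjusted p = 0.01587). Without healthy 5 and healthy 7, the cows farthest from the median depth, r was 0.36 over 5 cows, so the size of r leans on those cows together. Without healthy 5 alone r was 0.93, and without healthy 7 alone 0.84. In the other cows, from fewest to most known reads, 59, 64, 64, 79 and 66 known miRNAs were detected. The liver list share had r = 0.91 (exact permutation p = 0.01627, adjusted p = 0.04067) but rho = 0.54 (exact permutation p = 0.2357, adjusted p = 0.3333), and r was −0.28 without the same cows. The liver relation rests on healthy 5 and healthy 7.

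The remaining relations did not pass. The let-7 share had r = −0.77 (exact permutation p = 0.04544, adjusted p = 0.07573) and rho = −0.71 (exact permutation p = 0.0881, adjusted p = 0.2202), and r was −0.42 without healthy 5 and healthy 7. The top 10 share had r = −0.69 (exact permutation p = 0.08829, adjusted p = 0.1104) and rho = −0.50 (exact permutation p = 0.2667, adjusted p = 0.3333), with r = 0.64 without those cows. The red cell share had r = 0.51 and rho = 0.36, with exact permutation p = 0.2296 (adjusted 0.2296) and p = 0.4444 (adjusted 0.4444), and r = −0.07 without those cows. All shares of a library sum to 100%, so these relations are not independent of each other.

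How much a miRNA varied between cows beyond counting error was described for the 22 known rows read in all 7 cows at an average of at least 20 reads a cow. The coefficient of variation (CV, the SD over the mean) of the share, after the part that counting gives was taken off, had a median of 35.8%. It was smallest for let-7a-5p at 1.95%, followed by let-7f at 9.83%, miR-23a at 19.3%, let-7b at 21.9% and miR-25 at 22.9%. Among these 22 it was largest for miR-2478 at 119%, followed by miR-24-3p at 64.2%, miR-423-5p at 62.1%, miR-191 at 61.6% and miR-574 at 59.6%. The demand for a read in every cow can drop rows that vary much. It left out miR-1306, with 182 reads and a remaining CV of 104%, and miR-92a, with 170 reads and 77.9%. Both were at 0 in healthy 6 alone.

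let-7a-5p was the one row of the 22 with a chi-square per degree of freedom, which is near 1 where only counting varies, below 2, at 1.53. miR-126-5p, read as deeply, had 45.9 per degree of freedom and a remaining CV of 26.9%. The let-7 members differed among themselves, since let-7c had a remaining CV of 39.0% and miR-98 of 35.2%. miR-574 was at 49624 in healthy 1 and 4685 in healthy 7, and miR-423-5p at 36036 in healthy 7 and 6160 in healthy 1, so these miRNAs were extreme in the same cows with opposite sign. miR-24-3p was lowest in healthy 3, where miR-126-5p was highest, and highest in healthy 7, where miR-126-5p was lowest.

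**Figure D4:**
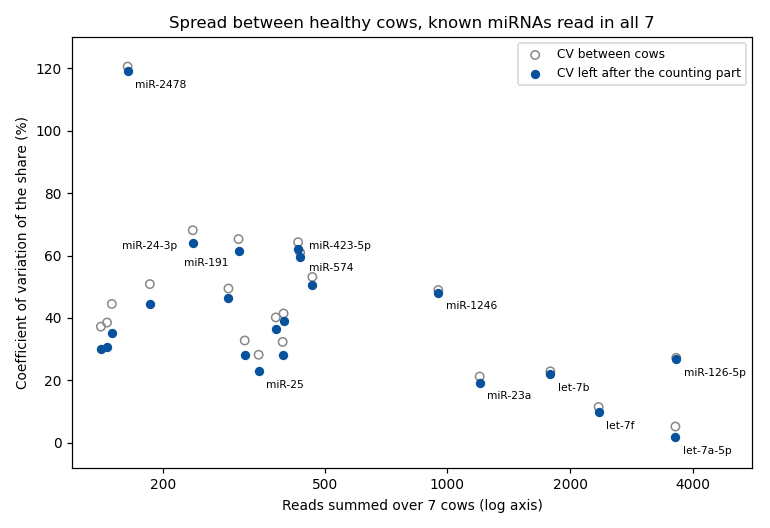
Coefficient of variation of the share over 7 healthy cows, in percent, against the reads summed over the cows on a log axis, for 22 known miRNAs. Open circles are the CV as measured and filled circles the CV left after the counting part, which is 1.95% for let-7a-5p and 119% for miR-2478.

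The shares of some miRNAs ran in parallel over the cows. Among the 25 most abundant, the shares of miR-10174-3p and miR-23b-3p had a Pearson r of 0.95 over 7 cows, those of miR-223 and miR-191 of 0.94, and those of miR-574 and let-7c of 0.92. In the other direction, let-7a-5p and miR-92a had −0.92 and miR-486 and miR-1468 −0.91. These are descriptions over 7 libraries whose shares sum to 100% and which differ in depth, and they were picked as the extremes of all pairs. miR-10174-3p was read at 121% of the level of miR-23b-3p on average. A read may count in more than 1 row, and whether these rows share reads was not tested.

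The profiles of pairs of cows were compared by share and by rank. The shared part of the known profile, the sum over miRNAs of the smaller of the shares in a pair of cows, averaged 79.3% over 21 pairs, from 72.2% between healthy 1 and healthy 7 to 85.7% between healthy 4 and healthy 6. That measure is set by the abundant rows. The rank correlation (Spearman) between cows, across the known miRNAs read in at least 1 cow of a pair, was lower, from 0.47 to 0.67, and low miRNAs with few reads enter it in full. Healthy 4 shared most with the others, at a mean of 82.1%, and healthy 7 least, at 77.4%.

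The 549 numbered rows took most reads and were more evenly detected. They come without a sequence, so no gene name or role is given to them. Of these rows, 525 were read in at least 1 healthy cow, 24 were at 0 in all 7, and 183 were read in all 7 and held 95.6% of the numbered reads. Between 344 and 383 were detected per cow, a mean of 360 ± 12.8. Their 10 most abundant rows held 63.3% ± 3.29 of the numbered signal, with 56.2% in healthy 7 and 63.1 to 66.1% in the other cows, whose mean was 64.5%. Between 4 and 7 rows were enough for 50% of the signal and 54 to 89 for 90%.

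One row stood far above the rest. The row 4_9843, on chromosome 4 by its name, had a signal of 293292 to 395576 with a median of 344797 and a mean of 349408 ± 34167. It held 30.9% ± 3.32 of the numbered signal and ranked 1 in all 7 cows, with its lowest share, 25.5%, in healthy 7 and its highest, 35.3%, in healthy 3. All 28 rows named for chromosome 4 together held 32.1% ± 3.28, so this row was nearly all of them.

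NKLS02002111.1_47333, on an unplaced scaffold, came next at 97686 ± 20145, a share of 8.64% ± 1.75. X_46560 had 56007 ± 5977 and 21_37337 had 54192 ± 18976, with 8.60% of the numbered signal in healthy 5 and 3.48 to 5.08% in the other cows. 19_34101 averaged 34352 ± 15068 and 3_7619 averaged 21958 ± 8165, and both were lowest in healthy 7, where they held 0.790% and 0.537%. 13_25923 averaged 30295 ± 4296 and 1_2735 27431 ± 6408. 15_29469 and 15_29470 had the same value in every cow, 18376 ± 2156 on average, and are not independent.

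**Figure D5:**
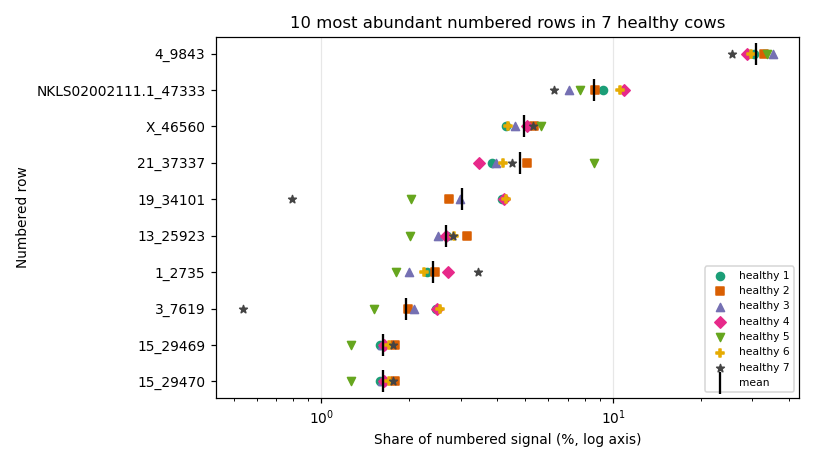
Share of the numbered signal, in percent on a log axis, of the 10 numbered rows with the highest means in 7 healthy cows, with 1 symbol per cow and a black bar for the mean. 4_9843 lies between 25.5 and 35.3%, and healthy 7 lies far below the other cows in 19_34101 and 3_7619.

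In all, 67 numbered rows equalled another row in every sample of the table and formed 32 groups. Counted once per group, 514 rows remained, and the repeats carried 3.51% of the numbered reads. The remaining CV had a median of 27.6% over the 101 numbered rows read deeply enough, against 35.8% over the 22 known ones. Numbered profiles shared 83.6% on average over 21 pairs of cows, from 75.5 to 91.1%, and healthy 7 shared least with the others, at a mean of 76.6%. Spearman correlations across numbered rows ran from 0.38 between healthy 3 and healthy 7 to 0.69 between healthy 4 and healthy 6.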

How the data were processed

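The authors deposited 1 table of values per miRNA and cow. These are a signal, in reads per 1000000 of a scaling total, which the authors computed apart for the known and the numbered rows: known rows sum to 2.81 to 5.39% and numbered rows to 10.6 to 15.0% above 1000000 per healthy cow. The submitters' processing notes name Bowtie and the ARS-UCD1.2 build. EV RNA was prepared with a miRNeasy Mini kit and sequenced from TruSeq small RNA libraries, per the labels' protocols. Vesicle isolation, trimming and counting are not given in the sources used here. Adapter ligation favours some sequences, so levels of different miRNAs are levels of reads, with no correction for length.

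Whole reads were recovered by dividing each value by the signal of 1 read, found per cow and row block. All 3066 values above 0 came out whole within 0.05 reads. Shares are of the known or of the numbered reads. The planned tests had assumed values on 1 scale and apply unchanged to a signal. Intervals are Wilson intervals at 95%, the limit for a count of 0 is 3 reads, and both cover counting error only, since PCR copies were not told apart. Replicates are separately labelled cows.

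Named are the 25 most abundant known rows, the 5 smallest and 5 largest remaining CVs, the tested arm pairs, up to 3 leading members of each of 17 lists, and the 10 most abundant numbered rows. Others were named after their values were seen. Members and lists were chosen with earlier results of these data known. The column of healthy 7 is numbered 9 in the table, and its label ties it to that cow. Sequences are not shown. Scripts were tested on simulated data. Alternatives left out cows, pooled reads, put all rows on 1 scale, and changed minimums and the pseudocount of 1. Software was Python 3.11.15, numpy 2.4.6, pandas 2.3.3, scipy 1.17.1 and matplotlib 3.10.9.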

Additional observations from a re-analysis of the deposited data

Results flagged for a closer look

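Of 59 measures looked at over the 7 healthy cows, 7 had 1 cow at a distance from the others above Dixon's 95% critical value of 0.568, where chance gives about 1 in 20. Of these, 3 concern the library of healthy 7. Its numbered reads were 13033, against 26878 in the next lowest cow. Known miRNAs made up 30.45% of its recovered reads, against 14.11% in the next highest. Its 10 most abundant numbered rows held 56.24% of the numbered signal, against 63.1% in the next lowest.

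Healthy 5 was apart in numbered rows. 21_37337 held 8.6% of its numbered signal, against 5.077% in the next cow. 15_29469 and 15_29470, which are equal rows and count as 1 observation, held 1.266% each, against 1.585% in the next lowest cow. In healthy 4 the neural list held 0.274% of the known signal, against 0.01753% in healthy 7, and this rests on 6 reads. miR-124a and miR-124b had 3 of these each, which may be the same reads counted in both rows.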

How the results depend on the processing

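No paired analysis was possible because no groups were compared, so replicate numbers pair no samples across groups. The arms were compared within cows. With known and numbered rows on 1 scale, the top 10 known rows held 8.305% and the let-7 list 4.553% of all reads, by construction, and 33 of 41 single shares moved by more than 1 SD. Leaving out 1 cow moved the count of arm pairs past the test between 0 and 7, with 0 only where the adjustment ran over 10 hairpins. Leaving out the 2 libraries under 2000 known reads gave 0, where 5 cows allow no p below 0.0625. A pseudocount of 100, no minimum of reads or a minimum of 100 reads gave 6. Leaving out 1 cow gave r between 0.8425 and 0.9545 for depth and detected miRNAs (adjusted p above 0.05 by exact permutation without healthy 5, 6 or 7), between −0.8921 and −0.6878 for the let-7 share (adjusted p = 0.03009 by exact permutation without healthy 3 and above 0.05 otherwise), and between 0.837 and 0.9444 for the liver share (adjusted p above 0.05 by exact permutation except without healthy 3). Without the 2 shallow libraries, r was 0.8982 for detected miRNAs and 0.9474 for the liver share, each with an adjusted p = 0.0625 by exact permutation over 5 cows, and no relation passed. Leaving out 1 cow, pooling reads or leaving out the shallow libraries moved none of the 41 single shares by more than 1 SD. A mean over 7 cows cannot move that far under these changes, so this shows no robustness. Relative changes were large for some shares. The neural list went from 0.0416 to 0.00292% without healthy 4 and the liver list from 0.280 to 0.157% without healthy 7. miR-2478 went from 0.949 to 0.560% without healthy 2. The known libraries, at 1371 to 5706 reads, limit detection more than the numbered ones.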

Other observations

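Some numbered rows were patchy over the healthy cows, and these were chosen after their values were seen. MT_46829, named for the mitochondrial genome, had 60, 112, 109, 81, 328, 318 and 341 reads in healthy 1 to healthy 7, highest in the last 3 of these cows. X_46149 had 297 of its 424 reads in healthy 7 and between 4 and 36 in the others. 27_42576 had 262 reads in healthy 5 and 220 in healthy 7, against 5 to 52 in the other cows. 5_11881 and 11_22094 were high in healthy 3 and healthy 6, with 248 and 231 reads of the former and 217 and 240 of the latter, against at most 46 in the other cows, and both were at 0 in healthy 1 and healthy 4. NKLS02002111.1_47302 had 425 reads in healthy 3, 130 in healthy 5 and 0 in healthy 7.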
